A study of Mus musculus with 5 samples.

Results

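Cytosolic ribosomal protein genes encode the proteins of the large (Rpl) and small (Rps) subunits of the ribosome that translates messenger RNA in the cytosol. The members were chosen by symbol: Rpl or Rps followed by a digit, with Rplp0, Rplp1, Rplp2 and Rpsa, and without symbols that carry -ps or begin with Rps6k. The bulk table held 90 of them among 22042 genes, 51 Rpl and 39 Rps, and the droplet matrix held 87 among 27998 genes, with 83 symbols in both. Rps19bp1 enters by its letters only, since it encodes a protein that binds Rps19. Several members are copies of another member (Rpl32l, Rpl37rt, Rps12l1, Rps23rg1, Rps27rt, Rps3a2, Rps3a3), and reads of near-identical copies can be split between them, so the values of these genes and of their parents are uncertain.

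CCK+ cells are enteroendocrine cells (EECs) that make the satiety hormone cholecystokinin. They were sorted as tdTomato+ cells from the small intestine epithelium of Cck-Cre; R26-LSL-tdTomato mice on C57Bl/6J, aged 6 to 8 weeks, and the tdTomato- cells of the same mice gave the CCK- libraries. All bulk mice were fasted overnight: 3 (A, B and F) were taken fasted and 3 (C, D and E) were refed the liquid diet Ensure, so the 12 libraries form 4 groups of 3. The Cre labels any epithelial cell in which Cck was active, now or earlier. The droplet library pooled tdTomato+ cells of 4 Neurog3-Cre; R26-LSL-tdTomato mice aged 6 weeks, in which Cre acts in EEC progenitors and labels their descendants. Those mice had no treatment.

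A ribosome needs its proteins in matched amounts, and the genes that encode them are known to be expressed together at high levels, most of all in cells that grow or divide. Messenger RNAs of this family typically begin with a run of pyrimidines, the terminal oligopyrimidine tract. The kinase complex mTORC1, which responds to nutrients, controls how actively messages with this tract are translated, through proteins such as Larp1. Transcript levels and the making of ribosomes are therefore separate quantities, and only transcript levels were measured here.

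The start regions of a few members are shown because the tract at the start is the sequence feature by which the family is known. RefSeq starts on build GRCm38.p6 were listed for 69 members, 66 of them in the bulk table. In the 60 bases centred on a listed start, an unbroken run of at least 8 bases that are each C or T was present in 37 of 69 members (53.6%), against 25.8% of 27025 genes, with a gene counted once over its listed starts. CTTTCC, on either strand, was present in 21.7% of members against 6.44% of genes, and CTCTTT in 17.4% against 5.32%. These motifs can overlap each other and the run. Where a member had several listed starts, the start with the longest run in its 60 bases was picked for display. Below, each line gives 30 bases, 15 on either side of the listed start, written in the direction of transcription (the strand is given), with the longest C or T run in capitals.
Rps6, a small subunit protein that is a phosphorylation target below mTORC1, chr4:86857353-86857382, minus strand: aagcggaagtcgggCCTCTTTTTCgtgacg
Rplp2, an acidic stalk protein of the large subunit, chr7:141447636-141447665, plus strand: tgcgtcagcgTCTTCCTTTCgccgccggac
Rps21, a small subunit protein, chr2:180257364-180257393, plus strand: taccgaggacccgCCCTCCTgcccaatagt
Rpl15, a large subunit protein, chr14:18270972-18271001, minus strand: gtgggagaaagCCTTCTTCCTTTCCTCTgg
Rpl7l1, a paralog of Rpl7, chr17:46782642-46782671, minus strand: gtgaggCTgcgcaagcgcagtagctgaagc
Rps19bp1, no ribosomal protein, chr15:80264292-80264321, minus strand: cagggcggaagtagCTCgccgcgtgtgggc
The run was 10 bases in Rps6 and Rplp2, 17 in Rpl15 and 7 in Rps21, and it was 2 bases in Rpl7l1 and 3 in Rps19bp1. Listed starts can lie away from the bases where transcription begins in these cells.

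Before the results, the sort was checked. Cck stood at 14837 to 32592 normalized counts in the 6 CCK+ libraries and at 27.6 to 86.0 in the 6 CCK- libraries, and all 5 EEC markers on the list were called higher in CCK+ cells. Other cells moved with the sort as well. The summed lymphocyte markers stood at 4686 to 10786 in CCK+ and at 462 to 1203 in CCK- libraries, with 8 of 8 called higher, and 4 of 5 enterocyte markers were called lower in CCK+ cells, with none of the 5 at 0. Markers of cycling crypt cells summed to 1595 to 4035 in CCK+ and 1041 to 2683 in CCK- libraries, with 3 of 6 called higher and all 6 above 0. Of the myeloid and of the B and plasma cell markers, 2 of 4 were called higher in each list. Over all genes 19.6% were called higher and 14.1% lower. The part of these other cells in the results below was not tested, and in sorted pools fewer cells of a type and less RNA per cell cannot be told apart.

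Ribosomal protein genes took up more of the CCK+ libraries than of the CCK- libraries. Their share of the library sum was 0.756, 0.571 and 0.788% in the fasted CCK+ libraries of mice A, B and F, and 0.987, 1.11 and 0.969% in the refed CCK+ libraries of mice C, D and E. In CCK- cells it was 0.357, 0.417 and 0.271% in the fasted libraries and 0.369, 0.377 and 0.372% in the refed libraries. Every CCK+ library lay above every CCK- library, and within CCK+ cells every refed library lay above every fasted library. In CCK- cells the 3 refed libraries fell inside the range of the fasted libraries.

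**Figure D1:**
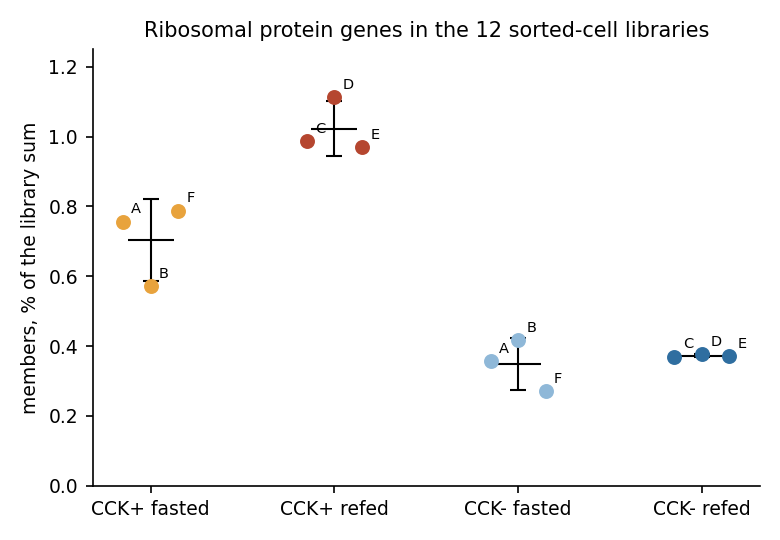
Share of the library sum held by the 90 members (y axis, %) in each of the 12 libraries, with 1 point per library, the mouse letter beside it, and the group mean ± SD as a bar. CCK+ libraries sit between 0.571 and 1.11%, above CCK- libraries at 0.271 to 0.417%, and the refed CCK+ libraries sit above the fasted CCK+ libraries.

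The mean share was 0.705% ± 0.117 (SD, n = 3) in fasted and 1.02% ± 0.0780 (SD, n = 3) in refed CCK+ libraries, against 0.348% ± 0.0736 (SD, n = 3) and 0.373% ± 0.00401 (SD, n = 3) in CCK- libraries. Transcripts of the mitochondrial genome also differed: they took up 9.59 to 14.9% of fasted CCK+, 6.16 to 9.30% of refed CCK+ and 14.6 to 22.2% of CCK- libraries. With these transcripts left out of the sum, the members held 0.671 to 0.871% in fasted CCK+, 1.07 to 1.19% in refed CCK+, 0.348 to 0.490% in fasted CCK- and 0.450 to 0.472% in refed CCK- libraries. The groups kept the same order, and the fasted and refed CCK+ libraries still did not overlap.

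Across single genes, 75 of 90 members were called higher in CCK+ than in CCK- cells over both feeding states, where 19.6% of all genes were called higher (limma on log2(normalized count + 1), adjusted p under 0.05 over 22042 genes). A single member, Rpl32l, was called lower, where 14.1% of all genes were. The median log2 difference was 0.98 over the members, against 0.01 over the genes with a mean of at least 10 normalized counts. All 6 CCK+ libraries lay above all 6 CCK- libraries for 66 members, where 9.74% of all genes were so separated, and for 0 members the CCK+ libraries all lay below, where 5.93% of all genes did. The 2 subunits had like shares: 43 of 51 Rpl genes and 32 of 39 Rps genes were called higher, with medians of 0.96 and 1.02. Among the 66 members with a listed start, the 36 with a C or T run of at least 8 had a median of 0.98 and the 30 without had 0.96. Equal library sums moved the median of the genes with a mean of at least 10 from 0.01 to 0.40, and relative to it the members' median was 0.97 before and 0.98 after.

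**Figure D2:**
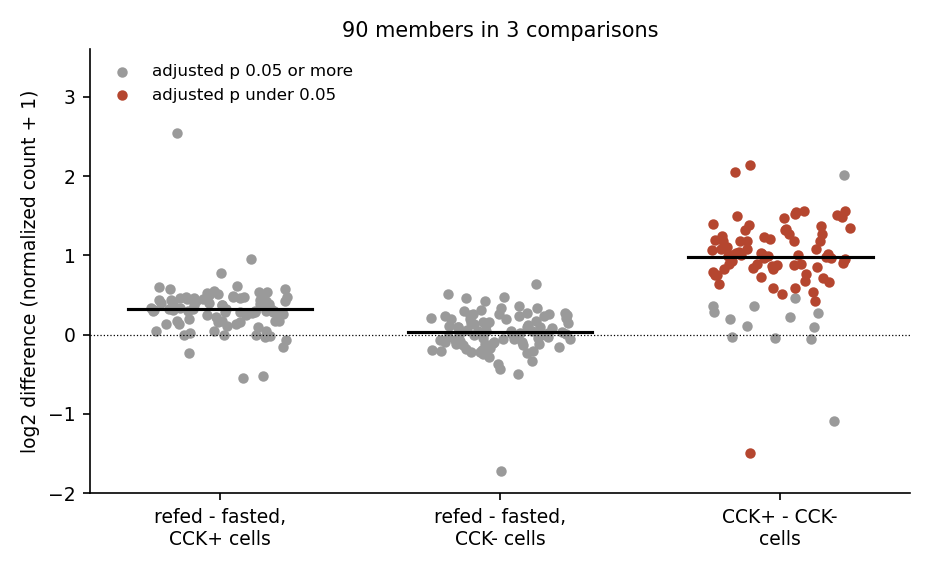
Log2 difference on log2(normalized count + 1) of each of the 90 members (points, y axis) in 3 comparisons (x axis), with the median as a bar and members with an adjusted p under 0.05 in red. In CCK+ against CCK- cells 75 members are red above 0 and 1 below, whereas no member is red in either refed against fasted comparison.

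The stalk of the large subunit, which recruits the factors that drive elongation, was called higher in all 3 of its proteins. Rplp1, an acidic stalk protein, stood at 377, 420 and 506 normalized counts in fasted and 401, 456 and 414 in refed CCK+ libraries, and at 114, 149 and 100 in fasted and 77.7, 100 and 88.0 in refed CCK- libraries. Its CCK+ and CCK- libraries did not overlap, and the log2 difference was 2.05 (SE 0.14, adjusted p = 6.47e-08). Rplp2, its partner, stood at 524 to 551 in fasted and 602 to 709 in refed CCK+ libraries, and at 166 to 311 in fasted and 177 to 203 in refed CCK- libraries (2.82-fold on that scale, adjusted p = 1.66e-06). Rplp0, which anchors the stalk to the ribosome, stood at 839 to 1104 in fasted and 1199 to 1368 in refed CCK+ libraries, and at 469 to 838 in fasted and 667 to 712 in refed CCK- libraries. Its log2 difference was also called, and its lowest CCK+ library, of mouse B, lay just above its highest CCK- library, of the same mouse.

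The largest called difference was that of Rps21, of the small subunit. It stood at 173, 204 and 193 normalized counts in fasted CCK+ libraries, 251, 253 and 283 in refed CCK+ libraries, 42.6 to 64.7 in fasted CCK- libraries and 80.0, 47.5 and 28.3 in refed CCK- libraries. The CCK+ libraries all lay above, with a log2 difference of 2.14 (SE 0.22, adjusted p = 3.50e-06). Rps14, Rpl36, Rpl37a, Rpl3 and Rpl12, which are core proteins of their subunits, followed at log2 differences of 1.56, 1.55, 1.55, 1.52 and 1.51, each with its 6 CCK+ libraries above its 6 CCK- libraries. Rpsa, a small subunit protein also known as a laminin receptor, stood at 843 to 982 in fasted and 1224 to 1327 in refed CCK+ libraries, against 458 to 680 and 602 to 644 in CCK- libraries, and was called higher. Rps6 was called higher too, but its groups overlapped: the fasted CCK+ libraries stood at 1139, 1074 and 1301 and the refed at 1803, 1819 and 1673, against 738, 1119 and 662 in fasted and 1190, 977 and 949 in refed CCK- libraries.

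**Figure D3:**
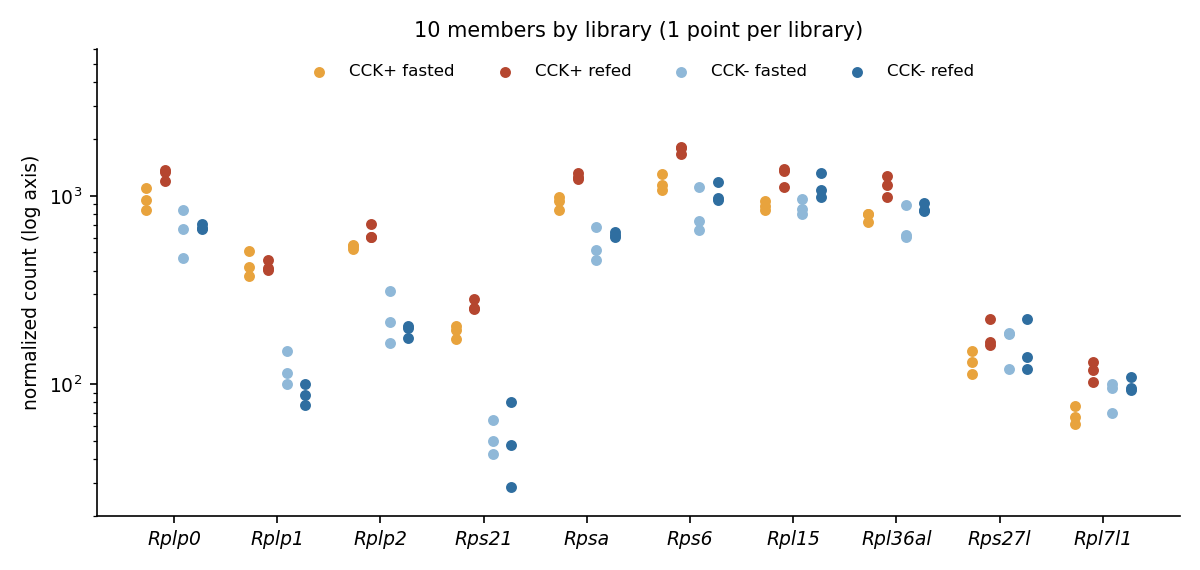
Normalized counts (y axis, log scale) of 10 members (x axis) in the 12 libraries, with 1 point per library coloured by group. Rps21 and Rplp1 part the CCK+ from the CCK- libraries most widely, whereas the CCK+ and CCK- points of Rpl15, Rps27l and Rpl7l1 overlap.

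Not every member followed the sort, and most of the listed paralogs did not pass the test. Rpl7l1, a paralog of Rpl7, had a log2 difference of -0.06 (SE 0.16), and Rps27l, a paralog of Rps27 known as a p53 target, one of -0.04 (SE 0.18). Rps27l stood at 114 to 150 in fasted and 160 to 221 in refed CCK+ libraries, and at 120 to 187 in fasted and 121 to 222 in refed CCK- libraries, so the populations overlapped almost fully. Both paralogs stood above 0 with equal library sums. Rpl22l1, Rpl36al and Rps4l, the other listed paralogs in the table apart from Rps27rt, had log2 differences of 0.28, 0.28 and 0.37 and were not called. Rps27rt, a copy of Rps27, was called higher, with 128 to 219 normalized counts in CCK+ libraries and at most 124 in CCK- libraries. Rps19bp1 was called higher too (0.87, SE 0.31, adjusted p = 0.0443), although its groups overlapped. Among genes that are no paralogs on the list, Rpl15 (log2 difference 0.11, SE 0.11), Rpl7a (0.20, SE 0.11), Rpl4 (0.23, SE 0.10), Rps16 (0.36, SE 0.16) and Rpl18 (0.46, SE 0.17) were not called. Rpl15 stood at 839 to 1383 in CCK+ and 805 to 1319 in CCK- libraries, and Rpl4, a large subunit protein that lines the exit tunnel, at 2288 to 3615 and 2095 to 2722.

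The member called lower, Rpl32l, rested on very few reads. It was listed at 2.81, 0 and 0.957 normalized counts in fasted and 0, 0 and 3.63 in refed CCK+ libraries, and at 2.22 to 6.69 in CCK- libraries (log2 difference -1.49, SE 0.50, adjusted p = 0.0312), and its groups overlapped. With the mouse as a block it was not called. Rps3a2 and Rps3a3 were listed at 0 in 10 and 9 of the 12 libraries, and Rps12l1 at 0 in all but 4, so no fold is given for them. Only 4 members had a mean under 10 normalized counts: Rpl32l, Rps23rg1, Rps3a2 and Rps3a3.

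The next comparison asked whether a meal changed the members. In CCK+ cells 80 of 90 members stood higher in refed than in fasted libraries and 10 did not, with a median log2 difference of 0.33, against 0.02 over the genes with a mean of at least 10. None passed the test over all genes: 0 members were called higher, where 1.31% of all genes were, and 0 lower, where 1.23% were (limma, adjusted p under 0.05), and 27 members were under an unadjusted p of 0.05, as were 3736 of the 22042 genes. Counted by libraries, all 3 refed lay above all 3 fasted for 42 members, where 10.8% of all genes were so separated, and all 3 lay below for 0 members, where 8.61% of all genes were. The direction was thus shared by most members, while the change of any single member was not separated from the spread at this number of libraries. Mouse B was lowest of the 6 CCK+ libraries for 42 members and mouse D highest for 46. The CCK+ library of B also had the lowest EEC marker sum (64136), the highest enterocyte sum (242435) and the highest mitochondrial share (14.9%). That of D had the highest EEC sum (235776) and the lowest mitochondrial share (6.16%), while the lowest enterocyte sum was that of E (95299). The part of these differences was not tested. Without both libraries of mouse B, 79 members still stood higher in refed CCK+ libraries, with a median of 0.28.

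The markers of EECs, the cells sorted for, and of other cells moved along this comparison too. The summed EEC markers stood at 64136 to 144472 normalized counts in fasted and 172711 to 235776 in refed CCK+ libraries, the enterocyte markers at 142518 to 242435 and 95299 to 159797, and the markers of cycling crypt cells at 1595 to 2994 and 3053 to 4035. None of the 5 EEC and none of the 5 enterocyte markers was called, and 1 of 6 cycling crypt markers was called higher. Paneth cell markers had the highest median of the marker lists, a log2 difference of 1.35 with 5 of 5 above 0 and 0 called, and summed to 1145 to 14149 in fasted and 6062 to 22738 in refed CCK+ libraries. The part of EEC content and of these other cells in the members' difference was not tested.

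The members with the smallest adjusted p came from both subunits and included a paralog. Rpl15 stood at 881, 839 and 940 normalized counts in fasted and 1383, 1358 and 1117 in refed CCK+ libraries, so that the groups did not overlap (log2 difference 0.53, SE 0.15, adjusted p = 0.0877). Rpl6, of the large subunit, stood at 1153, 1068 and 1209 in fasted and 1504, 1751 and 1542 in refed libraries (log2 difference 0.48, SE 0.14, adjusted p = 0.0877). Rpl7l1 stood at 76.2, 61.1 and 67.0 against 102, 130 and 119 (log2 difference 0.77, SE 0.23, adjusted p = 0.0919). For each of the 3, every refed library was above every fasted library, and none reached the threshold. Rps6 differed by 0.59 on the log2 scale (SE 0.18, adjusted p = 0.111), Rpl36al by 0.54 (SE 0.17, adjusted p = 0.112), Rpsa by 0.47 (SE 0.15, adjusted p = 0.136) and Rplp0 by 0.44 (SE 0.19, adjusted p = 0.256), again without overlap of the groups. Rps19bp1, at 18.9 to 34.1 in fasted and 42.2 to 57.1 in refed libraries, did not overlap either (log2 difference 0.96, SE 0.44, adjusted p = 0.291).

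Of the acidic stalk proteins, Rplp1 had a log2 difference of -0.03 (SE 0.19) between refed and fasted CCK+ cells, with overlapping groups and a value above 0 with equal library sums, and Rplp2 one of 0.24 (SE 0.20), with groups that did not overlap. Rpl38, a large subunit protein known for its role in translating Hox messages in the embryo, had one of the smallest absolute differences, at -0.01 (SE 0.20). Rps3a3 was listed at 0 in all 6 CCK+ libraries and so says nothing on refeeding. Both subunits had like medians, 0.31 over the Rpl and 0.34 over the Rps genes. Members with a C or T run at the start had a median of 0.33 and those without had 0.38.

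The result for refeeding depended on how libraries were scaled. The authors' scaling gives refed CCK+ libraries smaller sums (7061155 to 7849320) than fasted ones (7600394 to 9868241). When every library was rescaled to the same sum, 8 members were called higher, among them Rpl15, Rps6, Rpl6, Rpl4, Rpsa, Rpl36al and Rpl39. Of all genes, 815 were then called in either direction. This rescaling moved the median of all genes with a mean of at least 10 from 0.02 to 0.24, so that relative to those genes the members' median was 0.31 after rescaling and 0.30 before. With the fasted CCK- library of mouse B left out, which changes only the estimate of the spread, Rps6 alone of the members was called. Of all genes, 428 were called in that setting.

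In CCK- cells the members were balanced around 0. Of 90 members, 50 stood higher in refed than in fasted libraries, the median log2 difference was 0.04, and 0 members were called higher or lower, where 0.708% and 0.526% of all genes were called (limma, adjusted p under 0.05), with 3 members under an unadjusted p of 0.05, as were 2635 of the 22042 genes. All refed libraries lay above all fasted libraries for 3 members, Rpl15 and Rpl27a among them, where 8.05% of all genes did, and below for 4, Rplp1, Rps10, Rpl9 and Rpl10, where 8.18% did. The refed libraries of Rpl15 thus lay above the fasted libraries in both populations. The smallest absolute differences were those of Rpl7a, Rpl32 and Rpl41, each at 0.00 on the log2 scale. The balance rested on single libraries: mouse B was highest for 55 members among the 6 CCK- libraries and mouse F lowest for 60. Without the fasted CCK- library of B the members' median was 0.19 with 76 above 0, and without that of F it was -0.10 with 32 above 0.

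Whether refeeding acted differently in the 2 populations was tested directly. The refed effect in CCK+ cells minus that in CCK- cells was above 0 for 83 of 90 members, with a median log2 difference of 0.27, and 0 members were called in either direction, where 0% of all genes were called higher and 0.00454% lower (limma, adjusted p under 0.05), with 3 members under an unadjusted p of 0.05, as were 1378 of the 22042 genes. Rps10, Rpl10 and Rpl7 had the smallest unadjusted p, with log2 differences of 0.76 (SE 0.27), 0.60 (SE 0.22) and 0.60 (SE 0.25) and adjusted p = 0.739, 0.739 and 0.767. Rps10, of the small subunit, stood at 684, 618 and 1008 in fasted and 1015, 993 and 943 in refed CCK+ libraries, and at 386, 476 and 324 in fasted and 271, 321 and 316 in refed CCK- libraries. Its fasted and refed CCK+ libraries overlapped through mouse F, while its refed CCK- libraries all lay below the fasted ones. Without both libraries of mouse B the members' median was 0.07, with 55 above 0, so the size of this difference rested on mouse B.

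The partners of the ribosome give the setting. Fau, a ribosomal protein made as a fusion with a ubiquitin-like part and left out by the symbol rule, was not called between CCK+ and CCK- cells (log2 difference 0.22, SE 0.15) or between refed and fasted CCK+ cells (-0.34, SE 0.21). Over all genes 19.6% were called higher and 14.1% lower in CCK+ than in CCK- cells. Among 10 ribosome-associated genes, 4 were called higher and 1 lower. Nap1l1, a histone chaperone, differed by 1.86 (adjusted p = 4.56e-07) and Rack1, a scaffold on the small subunit, by 1.06 (adjusted p = 3.00e-05), while Tpt1, a tract-bearing message itself, differed by -0.35 (adjusted p = 0.0173). Of 9 elongation factor genes 6 were called higher and none lower, among them Eef2k, the kinase that inhibits Eef2 (group means of 109 and 116 against 55.3 and 41.7 normalized counts), and by log2 difference Eef1d (0.76), Eef1a1 (0.63) and Eef1b2 (0.51).

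Further from the ribosome the lists held calls in both directions, where 19.6% of all genes were called higher and 14.1% lower. The counts of each list were not tested against these shares. Of 35 initiation factor genes 9 were called higher and 7 lower in CCK+ cells, with Eif3i (0.91) and Eif4g3 (0.90) higher and Eif1a (-0.73) lower. Of 30 genes of mTORC1 and tract control 8 were called higher and 5 lower. Mycn (1.92, from group means between 1.04 and 14.2 normalized counts), Ddit4, an inhibitor of mTORC1 (1.83), Myc (1.16) and Sesn2, a leucine sensor (0.90), were higher. Eif4ebp3 (-0.74) and Eif4ebp1 (-0.69), inhibitors of initiation, and Mtor, the kinase itself (-0.64), were among the 5 lower. Of 78 mitochondrial ribosomal protein genes, which serve the separate ribosome of that organelle, 10 were called higher and 7 lower, with a median log2 difference of 0.05 against 0.98 for the cytosolic members.

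Between refed and fasted CCK+ cells the companion lists held called genes, where 1.31% of all genes were called higher. These calls rest on a spread shared with the CCK- libraries: in a fit of the 6 CCK+ libraries alone 0 genes were called, so each of them is lost. Initiation factors were above 0 for 33 of 35 genes with a median log2 difference of 0.42, and 4 were called higher: Eif2b5 (1.24, adjusted p = 0.0373), Eif2s1 (1.04, adjusted p = 0.00438), Eif3a (0.75, adjusted p = 0.0107) and Eif1a (0.68, adjusted p = 0.0454). Npm1, a nucleolar chaperone of ribosome assembly, rose by 0.76 (adjusted p = 0.0187), Serbp1, which binds idle ribosomes, by 0.66 (adjusted p = 0.0232), and Eef1g, an elongation factor subunit, by 0.74 (adjusted p = 0.0349). Of the mitochondrial ribosomal protein genes 64 of 78 were above 0, with a median of 0.33 that was close to that of the cytosolic members, and Mrps25, Mrps2, Mrpl42 and Mrpl15 were called higher. Of the 30 mTORC1 and tract control genes 0 were called in CCK+ cells, where 8 stood above 0 and the median was -0.25. In CCK- cells Eif3a rose (0.73, adjusted p = 0.0181) and Eif4ebp3, an inhibitor of initiation, fell by 1.87 on the log2 scale (adjusted p = 0.0292).

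In the droplet library single cells were set apart by 1 gene each, in UMIs per 10000: Cck of at least 500, Tph1, which makes serotonin in enterochromaffin cells, of at least 10, and Zg16, a goblet cell secretory protein, of at least 500. Of 9451 barcodes with more than 1000 genes and under 10% mitochondrial UMIs, 1246 passed the Cck gate, 2760 the Tph1 gate and 4545 the Zg16 gate. Barcodes in 2 gates were counted in each: 268 in Cck and Tph1, 130 in Cck and Zg16 and 452 in Tph1 and Zg16, with 12 in all 3. A goblet gene in an EEC gate can come from free RNA or from doublets, for which no caller was run. Zg16 stood at 258 UMIs per 10000 in the Cck gate and 400 in the Tph1 gate, and Tff3 at 287 and 401. The Tph1 gate, at 10 UMIs per 10000, has the lowest threshold of the 3, and the part of free RNA in it was not tested. Free RNA bears on the Zg16 gate as well. Free RNA held 851 Zg16 UMIs per 10000, above the limit of 500, while the pooled Zg16 gate held 2205. Barcodes that hold mostly free RNA could thus pass the Zg16 gate, and their part in it was not tested. The gates carried their other markers: Chgb, a granule protein of EECs, stood at 85.0 UMIs per 10000 in the Cck gate, 272 in the Tph1 gate and 21.6 in the Zg16 gate, and Muc2, the goblet mucin, at 27.2, 41.6 and 127.

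Ribosomal protein genes made up a larger share of UMIs in both EEC gates than in the Zg16 gate. The share was 7.14% in the Cck gate (95% exact binomial interval 7.12 to 7.16), 7.68% in the Tph1 gate (7.66 to 7.70) and 3.41% in the Zg16 gate (3.41 to 3.42), a ratio of 2.09 for Cck and 2.25 for Tph1 over Zg16. These intervals cover counting error only, and with 1 library there is no test between cells of different animals. Per cell the median was 6.98% (quartiles 5.85 and 8.15) in the Cck gate, 7.83% (6.46 and 9.11) in the Tph1 gate and 2.43% (1.81 and 4.09) in the Zg16 gate. Free RNA, pooled from barcodes with 1 to 100 UMIs, held 5.84%, between the gates. All 9451 barcodes together held 7.19%, and those in none of the gates 12.6%. The Cck gate thus lay slightly below the pool of all barcodes, the Tph1 gate slightly above it and the Zg16 gate well below it. Depth differed as well, with median UMIs per cell of 6296, 3366 and 6703. In cells with at least 5000 UMIs the shares were 7.12, 7.35 and 3.43%.

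**Figure D4:**
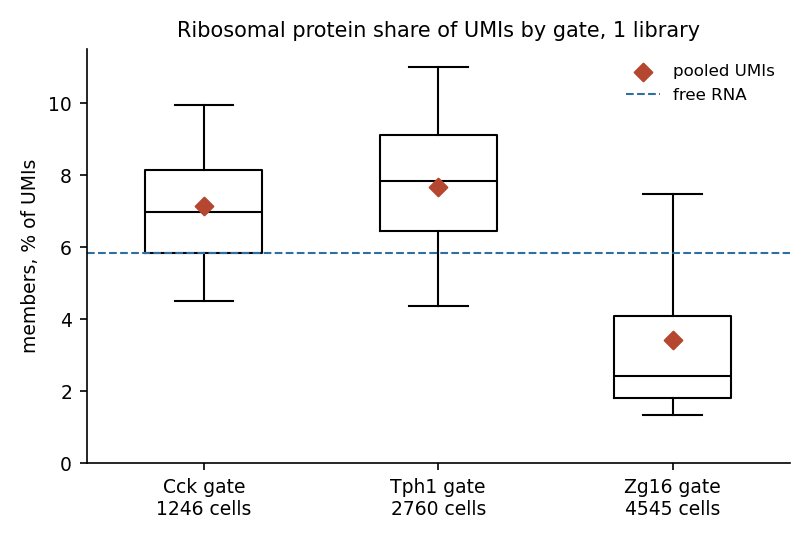
Share of a cell's UMIs on the members (y axis, %) in the 3 gates of the droplet library, with boxes for the quartiles and median, whiskers for the 5th and 95th percentiles, diamonds for pooled UMIs and a dashed line for free RNA. The Cck and Tph1 boxes lie near 7 to 8%, and the Zg16 median is 2.43%.

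A few secretory genes fill much of the goblet gate, which lowers every other share in it. Zg16 alone took 2205 and Tff3 1304 of 10000 UMIs there, while Cck and Sct took 1537 and 1221 of 10000 in the Cck gate. With the 20 most abundant non-member genes of each gate left out, 31 genes in all, the members held 13.4% in the Cck, 11.8% in the Tph1 and 7.57% in the Zg16 gate, and the ratios over the Zg16 gate were 1.77 and 1.56. Over all settings tried the ratio lay between 1.77 and 2.40 for the Cck gate and between 1.56 and 2.70 for the Tph1 gate. The order of the EEC gates over the goblet gate held in each setting, and the Cck gate stood above the Tph1 gate only when the abundant genes were left out.

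Of 84 members with at least 50 UMIs in a gate compared, 75 were at least 1.5-fold higher in the Cck gate than in the Zg16 gate, where 48.4% of all such genes were, and 0 were 1.5-fold lower, where 13.1% were. In the Tph1 gate 78 of 84 were higher by that rule, where 61.1% of all such genes were, and 0 lower, where 7.46% were. The median ratio over the members was 2.20 for Cck over Zg16, against 1.46 over all such genes, and 2.34 for Tph1 over Zg16, against 1.76. With the 31 abundant genes left out, 70 members of 84 were past 1.5-fold in the Cck gate, beside 3835 of 10069 genes, and 62 in the Tph1 gate, beside 3687 of 10319 genes.

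Single members spread around these medians. In the Cck against Zg16 comparison the highest ratios were those of Rps3a1 (3.15, from 13.7 against 4.36 UMIs per 10000), Rps2 (3.11), Rpl5, which carries the small ribosomal RNA of the large subunit (2.95), Rpl3 (2.94) and Rpl37a (2.89). In the Tph1 against Zg16 comparison Rpl36a (4.13), Rpl37a (3.33), Rpl10a (3.32), Rpl5 (3.16) and Rps13 (3.14) led. At the other end, Rpl36al, a paralog of Rpl36a, stood at 5.08 UMIs per 10000 in the Cck and 5.11 in the Zg16 gate, a ratio of 0.993. Rpl41, the shortest ribosomal protein, stood at 25.1 and 21.4 (1.17), and Rpl22l1, Rpl9, Rps27rt, Rps27 and Rps27l had ratios of 1.21 to 1.28. Of the 5 listed paralogs with enough UMIs, 4 thus stayed under 1.5-fold, with Rpl7l1 at 1.94 as the exception. Rpl6l, whose symbol has the same form but is not on the list, had a ratio of 2.87. Rpl36a and its paralog parted: Rpl36a was 2.83-fold higher in the Cck and 4.13-fold higher in the Tph1 gate than in the Zg16 gate, and Rpl36al stood at 0.993 and 1.14.

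**Figure D5:**
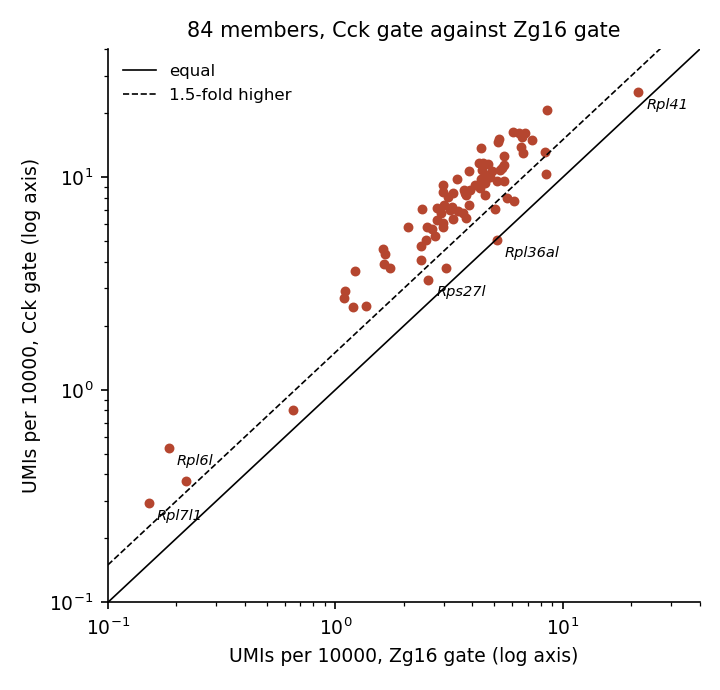
UMIs per 10000 of 84 members in the Cck gate (y axis, log scale) against the Zg16 gate (x axis, log scale), with 1 point per member, the line of equal values and the dashed line of a 1.5-fold higher value. Most points lie above the dashed line, and Rpl36al lies on the line of equal values.

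The 2 EEC gates differed little in the members when all genes were kept. No member of 84 then differed 1.5-fold between the Cck and the Tph1 gate, for which the share of all genes was not counted. The ratio of Cck over Tph1 had a median of 0.914 and ran from 0.686, in Rpl36a, to 1.37, in Rpl7l1. Leaving out the most abundant genes put Rpl7l1 past 1.5-fold: its ratio over the Zg16 gate was 1.64 for Cck and 0.978 for Tph1. The members' median ratio over the Zg16 gate was then 1.87 for Cck and 1.62 for Tph1. Rpl genes took 59.7, 60.4 and 61.7% of the members' UMIs in the Cck, Tph1 and Zg16 gates. The copies Rpl10l and Rpl3l had 0 UMIs in each gate, and Rpl39l had 1 UMI, in the Zg16 gate, whose 32010630 UMIs were the most of the 3. Among elongation factor genes, Eef1a1 stood at 15.5, 16.1 and 6.05 UMIs per 10000 and Eef2 at 5.26, 5.44 and 2.09 in the Cck, Tph1 and Zg16 gates, whereas Eef2k, at 0.0535, 0.0905 and 0.153, was highest in the Zg16 gate. Fau was closer between gates, at 10.3, 13.2 and 8.17.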

How the data were processed

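The deposited bulk signal values are gene counts that the authors made from trimmed reads (Trim Galore 0.6.7) with Salmon 1.6.0 on the GRCm39 transcriptome, summarized per gene and normalized in DESeq2, per the labels and the study's methods. They are not whole numbers, whole reads could not be recovered, and depth in reads is unknown. Library sums ran from 7061155 to 11371114 normalized counts. The deposited droplet values are raw UMI counts (Cell Ranger 2.0.1, mm10) in an unfiltered matrix, in which 475960 barcodes carried a UMI. The filter used here on genes and mitochondrial UMIs is not the study's own choice of cells, and no doublet caller was run.

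All 22042 genes were fitted in limma 3.58.1 (R 4.3.3) on log2(normalized count + 1), with 4 group means, a mean-variance trend, 8 residual degrees of freedom and Benjamini-Hochberg adjustment. An adjusted p under 0.05 was called. The fit was tested on simulated data. Droplet values were computed in Python 3.11.15 with scipy 1.17.1. With 1 library no test was made, and a 1.5-fold rule was used for genes with at least 50 UMIs in a gate.

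The members, lists and tests were chosen with earlier results of these data known. Members named are the called ones with the largest differences, the 3 with the smallest, the stalk proteins, Rpsa, Rps6, the listed paralogs and the extremes between gates. Rpl15, Rpl6, Rpl4, Rpl39, Rps10, Rpl10, Rpl7, Rps16, Rpl18, Rps19bp1, Rpl9, Rpl41, Rps27 and the copies, among others, were added after their values were seen. Libraries share a mouse letter across CCK+ and CCK- cells, and the series' description gives both populations from each mouse. Over genes, deviations from group means correlated at 0.0773 to 0.124 for the same letter and at most at -0.0184 for others. The deviations within a group sum to 0, so positive values for the same letter push the others down. Over the members the same letter gave -0.668 (A), -0.536 (B) and 0.552 (F) in fasted and -0.0397 to 0.0223 in refed pairs. CCK+ A with CCK- B gave 0.811, so the members do not show the pairing. In the public records all 4 bulk titles name CCK+ cells; the cell-type labels were used. Sequences are RefSeq's (GRCm38.p6). Some items are not reported here.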

Additional observations from a re-analysis of the deposited data

Results flagged for a closer look

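Cells that passed none of the 3 gates stood apart. These 1738 barcodes held 12.6% of their UMIs on the members (95% exact binomial interval 12.6 to 12.7), above the 5.84% of free RNA and 3.70 times the share of the Zg16 gate, and the median per cell was 8.99% with quartiles of 5.18 and 20.2%. All 5 Paneth cell markers and 4 of 5 enterocyte markers were higher in them than in each gate. Fabp1, an enterocyte marker, stood at 56.6 UMIs per 10000 against 4.93 in the Cck gate, Lyz1, a Paneth cell marker, at 118 against 3.07, and Mki67, a marker of dividing cells, at 0.684 against 0.0474. The enterocyte marker Sis stood at 3.44 against 7.99 in the Cck gate. Median UMIs per cell were 9364, the highest of the groups. The part of each of these cells in the share was not tested.

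Symbols that carry -ps, which the rule leaves out, held signal too. These 108 pseudogene symbols took a mean of 0.0586% of the library sum in refed CCK+ libraries, 0.0413% in fasted CCK+, 0.0272% in fasted CCK- and 0.0284% in refed CCK- libraries. The refed CCK+ libraries (0.0555 to 0.0629%) lay above all others. Reads of a gene and of its processed copies can be split by the counting, and the part of such splitting was not tested.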

How the results depend on the processing

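Refed against fasted in CCK+ cells gave 0 called higher, but 8 with equal library sums and 9 with equal sums of non-members, and 0 to 1 with each library left out in turn. Of all genes, 815 were called in either direction with equal library sums and 818 with equal sums of non-members. CCK+ against CCK- cells gave 75 higher, 30 in the fasted libraries alone (all 30 also called over both states) and between 73 and 78 otherwise, except 83 with either rescaling. In this comparison 2169 of all genes were called in either direction in the fasted libraries alone. With equal library sums 7743 were called, and with equal sums of non-members 7773. The 1 call lower, Rpl32l, fell to 0 with a mean of at least 10, both rescalings, the fasted or refed libraries alone, the replicate block (the mouse letter) and without mouse B, and to 0 to 1 with a library left out. The block changed no other count of calls. In CCK- cells and for the difference of effects, 0 were called in every setting. The limma fit of the 6 CCK+ libraries alone called 0 genes in all. Among named members no called value changed sign.

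Mean shares of the library sum in refed CCK+ and CCK- cells were 1.11 and 0.458% without mitochondrial transcripts, and 0.359% in refed CCK- cells for the core set without the paralogs and Rps19bp1. Shares of UMIs in the Cck, Tph1 and Zg16 gates were 7.11, 7.60 and 3.03% with more than 500 genes, 7.19, 7.53 and 3.94% with more than 1500, 7.33, 8.58 and 3.18% in cells of 1 gate, 13.4, 11.8 and 7.57% without the most abundant genes and 6.93, 7.79 and 2.89% with limits doubled. With at least 5000 UMIs, chosen after seeing the data as was leaving out mitochondrial transcripts and mouse B, Tph1 gave 7.35 and Zg16 3.43%. With 3 libraries a group, small changes of single members cannot be separated from the spread.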
